A study of Mus musculus with 24 samples.

Results

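Brown adipose tissue (BAT) DNA methylation was read in stretches of DNA lying between 5 and 50 kb upstream of genes and away from CpG islands. They were the MspI fragments of a reduced representation bisulfite sequencing (RRBS) table that the deposited annotation places upstream of a gene, 5000 to 50000 bp from it, outside the cores of CpG islands and more than 2000 bp from any island. There were 8791 such fragments among the 65535 of the table (13.4%), assigned to 2184 genes. In RRBS the enzyme MspI opens DNA at CCGG, short pieces are treated with bisulfite and sequenced, and each CpG of a read is scored as methylated, where its cytosine survived, or as not methylated. A fragment's methylation level is the methylated share of its calls in a library, used here where the library had at least 10 calls. The 2053 fragments (23.4%, at 973 genes) with a level in at least 8 libraries of each group could be tested. Of the 6738 others, 2203 had no call in any library.

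The samples were BAT of female C57BL/6J mice at PND 12, each a pool of littermates, so that litters and not pups were the replicates. The 12 DDT libraries came from litters of dams gavaged with DDT, given as the o,p' and p,p' isomers together, from mid-gestation into the nursing period, and the 12 VEH libraries from litters of dams given the olive oil vehicle. The comparison asked whether perinatal DDT exposure was followed by another methylation level in the BAT of the infants. The table covers chromosomes 1 and 2 and chromosome 3 up to position 136670346 on GRCm38. Other chromosomes were not analysed here. Methylation calls hold no expression, so that the tissue label could not be checked against marker genes. A whole-tissue pool holds fat, vessel, blood, nerve and at times muscle cells. A level between the extremes can be a mixture of cells or of alleles, which these data cannot tell apart.

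Most CpGs of a mammalian genome are methylated. CpG-rich promoters are the main exception, and distal stretches where transcription factors sit, such as enhancers, often carry less methylation than the DNA around them. DNA methyltransferases Dnmt3a and Dnmt3b set the mark, Dnmt1 copies it at cell division and Tet enzymes start its removal. Upstream DNA far from a gene is therefore of interest as a place where tissue-specific enhancers lie, but it can also hold the promoter of a neighbour, or repeats that are kept methylated.

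DDT replicates 4 and 12 stood apart from the other libraries. Libraries held 8371958 to 14124652 CpG calls over the whole table, DDT replicates 4 and 12 within that range. DDT replicate 4 had a level at only 917 of the 2053 tested fragments, with a median of 6 calls. The fragments it covered had a median VEH level of 13.9%, and the 1136 it missed one of 77.0%. DDT replicate 12 covered 1764, and the other libraries 1696 to 2051. The main counts, and some of the fragments where one of these libraries is at an end of the range, are also given without them. Calls are PCR reads without molecular identifiers, and the errors given are the spread between libraries.

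The 11 sequences below are those the results turn on. They are the plus strand of the RefSeq GRCm38 genome, and capitals mark each CpG. The first pair belongs to fragments with a small unadjusted p between DDT and VEH, upstream of Cdk5r2 (chr1:74806767-74806826) and of Zfp345 (chr2:150500549-150500641). The next 3 were low in most libraries and lie beside the start of another gene. They are upstream of Tmco1 (chr1:167284429-167284516) and a touching pair upstream of Cenpf (chr1:189727973-189728059 and chr1:189728060-189728115). The fragments upstream of Nrarp (chr2:25168061-25168168) and Tcf15 (chr2:152114819-152114880) were low although far from any start. The last 4 are 2 touching pairs, upstream of Kcnq5 (chr1:22002056-22002102 and chr1:22002103-22002140) and Rxrg (chr1:167583878-167583910 and chr1:167583911-167584081), whose partners had opposite levels.
Cdk5r2: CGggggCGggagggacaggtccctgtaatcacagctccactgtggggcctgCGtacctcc
Zfp345: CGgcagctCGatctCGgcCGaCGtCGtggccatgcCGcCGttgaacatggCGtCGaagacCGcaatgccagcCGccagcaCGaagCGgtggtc
Tmco1: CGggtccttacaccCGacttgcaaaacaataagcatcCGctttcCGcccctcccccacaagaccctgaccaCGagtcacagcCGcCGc
Cenpf, first: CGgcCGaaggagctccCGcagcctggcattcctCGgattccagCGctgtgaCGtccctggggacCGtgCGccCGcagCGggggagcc
Cenpf, second: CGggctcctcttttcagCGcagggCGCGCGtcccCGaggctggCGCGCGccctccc
Nrarp: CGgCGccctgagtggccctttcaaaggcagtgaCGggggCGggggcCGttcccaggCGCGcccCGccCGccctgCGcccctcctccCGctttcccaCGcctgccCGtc
Tcf15: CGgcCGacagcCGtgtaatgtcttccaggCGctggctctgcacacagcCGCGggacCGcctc
Kcnq5, first: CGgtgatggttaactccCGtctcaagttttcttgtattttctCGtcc
Kcnq5, second: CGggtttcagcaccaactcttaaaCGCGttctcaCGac
Rxrg, first: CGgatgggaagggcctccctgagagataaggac
Rxrg, second: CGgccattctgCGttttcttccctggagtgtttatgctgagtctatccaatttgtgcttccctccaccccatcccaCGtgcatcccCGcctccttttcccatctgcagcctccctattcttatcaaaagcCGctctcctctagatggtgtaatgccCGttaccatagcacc

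Levels spanned the whole scale, with the most fragments at both ends. In VEH, 744 (36.2%) had a mean level under 20%, 723 (35.2%) one over 80%, and 586 lay between, with a median of 54.1% over all. The whole table leaned to the low end, with a median of 11% and 61% of its 20225 tested fragments under 20%. Fragments chosen by the same island rule but under 5 kb upstream of a gene had a median of 14.8%, those in introns 31.4% and those over 200 kb upstream 84.5%. Within the 5 to 50 kb window the level did not follow the distance to the named gene. The median was 48.2% from 5 to 10 kb, 43.0% from 10 to 20 kb, 63.0% from 20 to 35 kb and 55.1% from 35 to 50 kb. Just inside the window the 72 fragments from 5 to 6 kb had a median of 48.8% and just outside it the 73 from 4 to 5 kb one of 26.3%. At the far edge the 149 from 45 to 50 kb had 43.9% and the 145 beyond that, up to 55 kb, had 31.1%. The SD over VEH libraries was under 5 points for 70.5% of the tested fragments. A level near 0 or 100% leaves little room to vary, and the median SD was 2.20 points under 20%, 2.53 points over 80% and 5.69 points between.

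**Figure D1:**
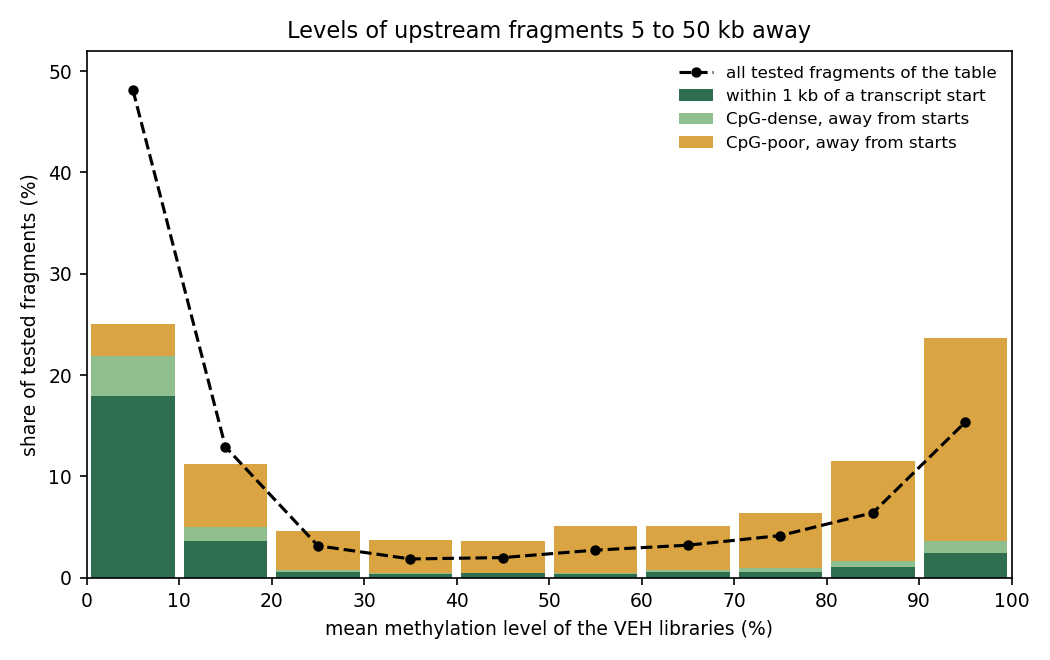
Share of tested fragments (%) by mean VEH methylation level (%) in steps of 10 points, with bars for the 2053 upstream fragments split by position and CpG density and a dashed line for all 20225 tested fragments of the table. The bars are highest at both ends (25% under 10% and 23.7% over 90%), and fragments within 1 kb of a start make up most of the lowest bar.

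Levels differed by what lay at the fragment. Against GENCODE M21, 573 tested fragments (27.9%) were within 1 kb of some transcript start. In 563 of them it was the start of another gene than the one the annotation names. Their median VEH level was 5.99%, and 77.3% were under 20%. The 391 within 1 kb of a protein-coding start had a median of 3.96%. A further 167 lay away from starts in CpG-dense DNA, defined as a 500-bp window with an observed to expected CpG ratio over 0.6 and a G+C content over 50%, and had a median of 10.3%. The remaining 1313 fragments (64.0%), at 802 genes, were CpG-poor and away from starts, with a median of 77.6%, 14.6% under 20% and 46.8% over 80%. The 3 kinds were set after the levels had been seen and are a description. The named gene was the one with the nearest start for only 470 tested fragments (22.9%), and 822 lay inside some gene, where the median was 15.0%, beside 69.2% for the 1231 outside genes.

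Several of the genes with the most tested fragments were represented by the start of a neighbour. All 14 fragments assigned to Tmco1, a calcium channel of the endoplasmic reticulum, lay within 1 kb of the start of Uck2 or of a transcript beside it. Uck2 makes a kinase that salvages uridine and cytidine. Mean VEH levels there ran from 0.764 to 17.0%. The 14 fragments assigned to Lsm14b were at the start of Taf4, a subunit of the general transcription factor TFIID, or of a transcript beside it, and ran from 1.36 to 6.92%. Of the 16 assigned to 4931440L10Rik, 12 were within 1 kb of the start of Kdm5b, a demethylase of histone H3 lysine 4, and all 16 were low, from 1.46 to 17.2%. The 14 assigned to Mir3089 ran from 1.20 to 13.3%, but only 2 of them were near a start. Differences between DDT and VEH over these 4 sets of fragments ran from -2.63 to 14.6 points, and none reached an unadjusted p under 0.05.

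The 6 lowest levels named were all beside starts. They are listed as a description, since the level chose them. The fragment assigned to Tmco1 and printed above, 85 bp from the Uck2 start, had VEH levels with a lowest, median and highest library of 0, 0 and 3.14%, and DDT levels of 0, 0 and 1.68%. The fragment assigned to Acbd5 overlapped the start of Abi1, an actin regulator, and ran from 0.147 to 1.81% in VEH with a median of 0.563%, and from 0 to 1.5% in DDT with a median of 0.205%. The second Cenpf fragment, 153 bp from the start of the tyrosine phosphatase gene Ptpn14, ran from 0 to 1.70% in VEH and from 0 to 2.51% in DDT at 454 to 1910 calls per library. The other 3 of the lowest 6 were assigned to Gchfr (173 bp from the Rmdn3 start), AL954388.1 (70 bp from the Sh3glb2 start) and Ralb (257 bp from the Tmem185b start). Their VEH means were 0.582% ± 0.691, 0.564% ± 0.653 (SD, n = 12 each) and 0.264% ± 0.664 (SD, n = 11). In all 6 the ranges of both groups overlapped.

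CpG-poor fragments away from starts were mostly methylated. The 369 of them that were at least 50% repeat had a median of 88.3%, and the 944 others one of 69.7%. Their medians did not follow distance either, with 78.8, 78.3, 75.9 and 77.3% in the 4 steps of distance from near to far. CpG-poor fragments under 5 kb upstream had a median of 58.9%, those in introns 78.7%, those over 200 kb upstream 86.5% and all those of the table gave 80.6%. Olfactory receptor genes, which are silent outside the nose and lie in large repeat-rich clusters, had 67 tested fragments at 40 genes. Their median was 87.9%, 46 of them were over 80%, and 85.1% of them were at least 50% repeat. The olfactory receptor genes with the most tested fragments, Olfr1305 with 4 and Olfr1295, Olfr1408, Olfr266 and Olfr338 with 3 each, ran from 47.8 to 99.2%.

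Level moved with fragment length among the CpG-poor fragments, and the part of length in it was not tested. Median VEH levels were 57.7% for fragments of 30 to 40 bp, 70.0% for 41 to 50 bp, 91.7% for 51 to 60 bp, 88.0% for 61 to 80 bp, 90% for 81 to 100 bp, 39.9% for over 100 and up to 150 bp and 60.3% for over 150 and up to 220 bp. All tested CpG-poor fragments of the table gave 61.7, 70.8, 92.0, 90.5, 89.4, 79.2 and 63.7% for the same steps. Upstream fragments were thus like the table at most lengths, and lower between 100 and 150 bp, where they numbered 65. Fragments with 1 CpG, which is the one of the MspI site, had a median of 56.6%, and 23.6% of them were under 20%. Those with 2 CpGs had a median of 78.5%, and 5.47% were under 20%.

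**Figure D2:**
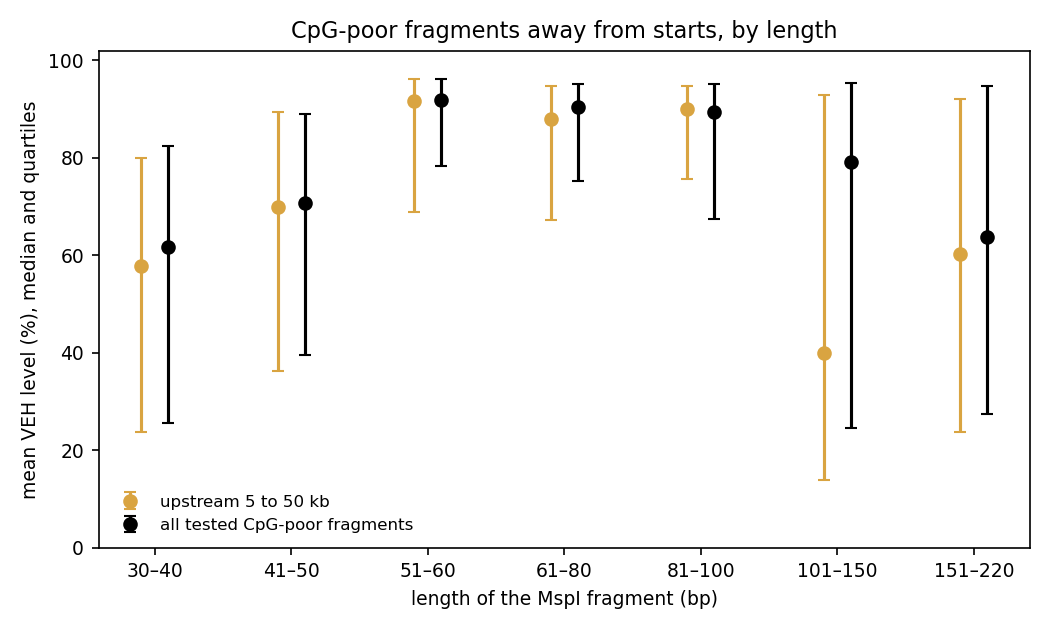
Mean VEH methylation level (%) of CpG-poor fragments away from starts, as median (point) and quartiles (bars), by length of the fragment (bp), for the upstream fragments 5 to 50 kb away and for all tested CpG-poor fragments of the table. Medians are near 90% between 51 and 100 bp and lower for shorter and longer fragments in both sets.

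Neighbouring fragments could have opposite levels as read here. The part of fragment length, read length and end repair in these contrasts was not tested. Among 509 pairs of tested fragments that touch at an MspI site, the median difference of the VEH means was 9.09 points, and 139 pairs differed by more than 20 points. The largest difference was upstream of Kcnq5, a voltage-gated potassium channel gene, in DNA that is all repeat. The first fragment of the pair had 99.5% ± 0.590 and the second 12.2% ± 5.58 (SD, n = 12 each). Upstream of Rxrg, which encodes retinoid X receptor gamma, the first fragment had 87.3% ± 3.43 and its longer partner 14% ± 4.19 (SD, n = 12 each). In the first Rxrg fragment VEH libraries ran from 81.2 to 91.7% with a median of 88.3%, and DDT libraries from 84.2 to 100% with a median of 89.1%. Of the 192 low CpG-poor fragments, 86 touched another tested fragment of the table. In 27 of these 86 at least 1 partner was over 80%, and in 26 all partners were under 20%. The level of 100 of the 192 lay between 8 and 14%.

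Some CpG-poor fragments were low all the same. Of the 192, 180 had a median of at least 30 calls, at 148 genes, and 23 genes had more than 1. Tcf15, which encodes a basic helix-loop-helix factor of the somites, had the most, with 6 between 5.85 and 16.7% at 11283 to 28843 bp from the gene. Between them lay fragments with 36.7% ± 3.66 and 53.0% ± 3.84 (SD, n = 12 each) at 22564 and 22399 bp. Nrarp, whose product dampens Notch signalling, had 4 between 1.17 and 19.8% at 12446 to 17201 bp, and nearer to the gene, at 9550 and 9520 bp, fragments with 98.1% ± 1.86 and 80.5% ± 2.15 (SD, n = 12 each). The 3 upstream of D130058E05Rik, between 2.78 and 12.4%, had the homeobox gene Gbx2 as the nearest start. Chit1 and Mettl11a also had 3 each, between 2.09 and 7.78% and between 6.26 and 15.2%. En1, a homeobox gene of midbrain and limb, had 2, at 2.52% ± 3.04 and 7.74% ± 2.09 (SD, n = 12 each). Single low CpG-poor fragments of at least 4 CpGs were upstream of Ptma with 2.18% ± 2.01 (SD, n = 12), Shc4 with 3.44% ± 1.06 (SD, n = 12) and Tfap2d with 4.25% ± 2.70 (SD, n = 11). One assigned to Slc39a13, with 1.93% ± 1.26 (SD, n = 12), was 3536 bp from the start of Spi1, the master regulator of myeloid cells. These genes were picked for their low level after it was seen. They are some of the 148, and whether the 148 share a function was not tested. Of the 180 fragments, 8 had an unadjusted p under 0.05 between DDT and VEH, beside 4.18% of the table. Several sit close to the bound of CpG-poor DNA. The observed to expected CpG ratio was 0.596 at the lower En1 fragment, 0.583 at the printed Tcf15 and 0.558 at the printed Nrarp fragment, 0.518 at Shc4, and 0.289 at Ptma, where the median of all CpG-poor upstream fragments was 0.330. At Tfap2d it was 0.716, and only a G+C content of 48.7% put the fragment in this kind.

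Pax3, a paired box factor of muscle precursors and neural crest, had 16 tested fragments between 7050 and 20451 bp upstream, all outside genes and none near another start. Only 3 of these were CpG-poor. The others were of the CpG-dense kind, of which 65.3% were under 20% among all tested upstream fragments. Of the 16 at Pax3, 15 had a mean VEH level under 20%. Mean levels ran from 1.11 to 28.6% in VEH and up to 29.1% in DDT. The one named for its low level, with 17 CpGs at 20166 bp, had VEH libraries from 0 to 5.56% with a median of 0% and DDT libraries from 0 to 4.44% with a median of 0.495%. The fragment with the smallest p, at 18926 bp with 5 CpGs, ran from 0 to 37.1% in VEH with a median of 9.08% and from 0 to 30.8% in DDT with a median of 1.88%. In DDT, 10 of 11 libraries were below the VEH median, but the ranges overlapped almost fully. The difference was -7.56 points (SE 4.81), and the unadjusted p was 0.138 in the ANOVA. It was 0.082 in limma and 0.00682 in the quasi-binomial regression. On simulated calls without a difference, this regression gave a p under 0.05 more often than the ANOVA.

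**Figure D3:**
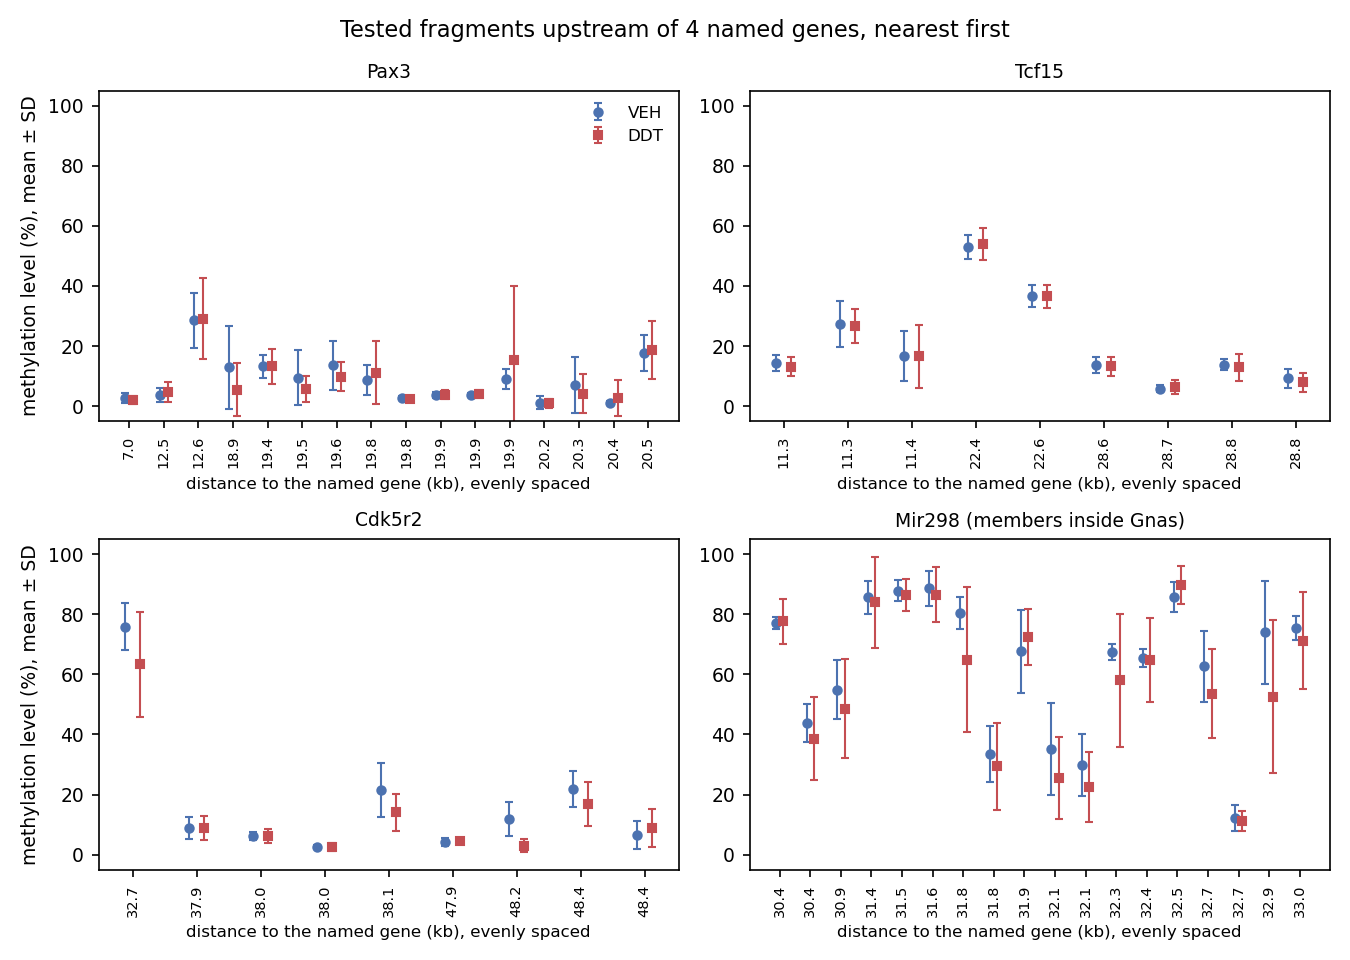
Methylation level (%) as mean and SD of the VEH and DDT libraries for each tested fragment upstream of Pax3, Tcf15, Cdk5r2 and Mir298 (the 18 of its 19 that lie inside Gnas), ordered by distance to the named gene in kb and evenly spaced. Fragments at Pax3 stay below 30% while those inside Gnas vary from 11.2 to 89.7% over a short stretch, and the groups overlap at nearly all of them.

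Some fragments differed strongly between litters of one group. Over VEH libraries, 130 tested fragments had an SD above 10 points. The largest, among fragments with a median of at least 50 calls, was at the first Cenpf fragment, where 1 library decided it. VEH replicate 9 had 75% at 40 calls, while the other VEH libraries had 0 to 9.22%. DDT libraries there ran from 0 to 20% with a median of 0%. Upstream of Phf17, a component of histone acetyltransferase complexes, VEH libraries ran from 27.3 to 85.4% with a median of 62.9%. DDT libraries there ran from 1.5% in replicate 4, at 133 calls, to 90.2% in replicate 12, with a median of 76.6%. The difference was 5.30 points (SE 9.16), 11.1 points without DDT replicate 4 and 3.09 points without DDT replicate 12. Upstream of Ptma, which encodes prothymosin alpha, the fragment at 22552 bp ran from 0 to 54.5% in VEH with a median of 4.15% and from 0 to 63.6% in DDT with a median of 4%. The fourth lay inside Gnas and is described with its neighbours below.

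Between DDT and VEH, no fragment passed the adjusted threshold. The ANOVA F test on levels, with Benjamini-Hochberg adjustment over all 20225 tested fragments, called 0 of the 2053 at an adjusted p under 0.05, beside 0 (0%) in the table. No adjusted p was below 0.869. Before adjustment, at a p under 0.05, 99 of the 2053 (4.82%) passed, beside 4.18% of the table. Of these, 33 were higher in DDT, beside 1.25% of the table, and 66 were lower, beside 2.93%. The shares of upstream fragments that passed were near those of the table in both directions. limma on log ratios of the calls gave 81 of the 2053 at an unadjusted p under 0.05 (3.95%), beside 3.51% of the table. A quasi-binomial regression gave 161 (7.84%), beside 7.72% of the table, and both called 0 after adjustment. On simulated calls without a difference, this regression gave a p under 0.05 at 7.73% of fragments, where the ANOVA gave 4.55%.

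The balance of directions moved with the libraries used. Without DDT replicates 4 and 12, 103 of 1993 fragments (5.17%) had an unadjusted p under 0.05, beside 882 of 19560 (4.51%) in the whole table. Of the 103, 55 were higher and 48 lower in DDT, beside 437 higher and 445 lower in the whole table. Of the 99 found with all libraries, 58 were among these 103, each in the same direction. Differences were small in either case. Of the tested fragments, 88.7% differed by under 5 points between the group means, 231 by at least 5 and 30 by at least 10, with a median SE of the difference of 1.84 points.

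The libraries were also set side by side by their mean. Each library's mean deviation from the VEH means was -0.00218 ± 0.972 points in VEH and -0.827 ± 2 in DDT (SD, n = 12 each). DDT replicates 4 and 12 had -4.91 and -4.25 points, and the other 22 libraries lay between -2.04 and 1.48. Without these 2 libraries the DDT mean was -0.0756 ± 1.06 points (SD, n = 10). The gap was wider in CpG-poor fragments away from starts, where replicates 4 and 12 were at -8.89 and -6.07 points, than near starts, where they were at -1.5 and -1.54. Over the 764 fragments with a level in every library, the DDT libraries were at -0.529 ± 1.55 points (SD, n = 12), with an SD of 0.609 in VEH.

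**Figure D4:**
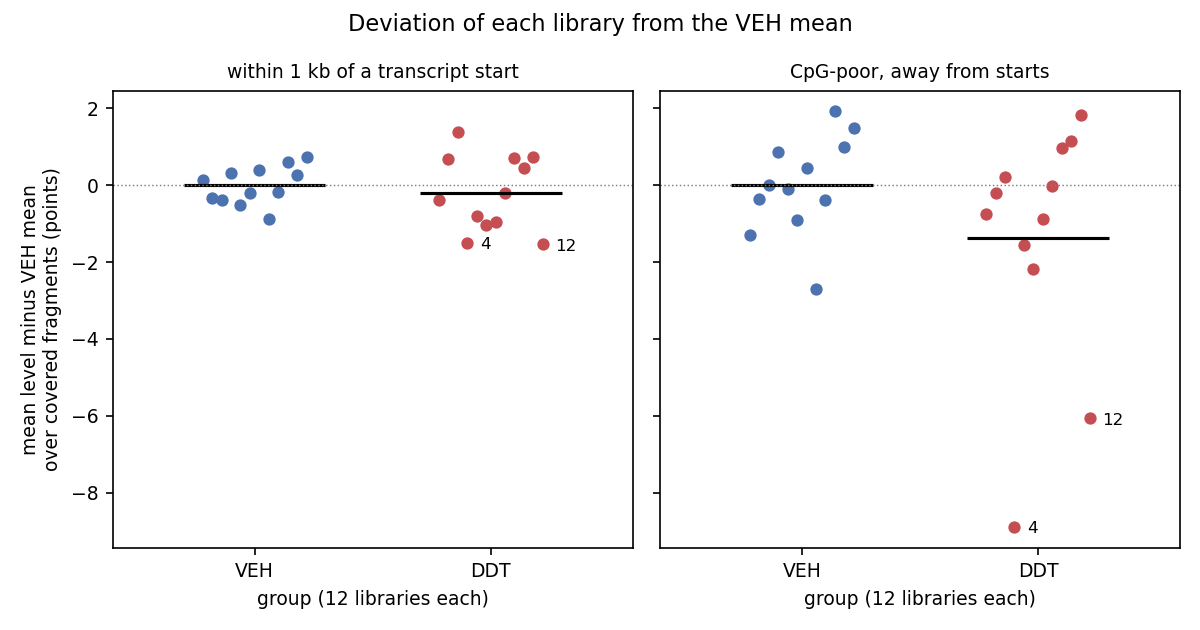
Mean methylation level of each library minus the VEH mean over the fragments it covers (points), for fragments within 1 kb of a start (left) and CpG-poor fragments away from starts (right), with 12 libraries per group and a line at the group mean. DDT replicates 4 and 12 lie at -8.89 and -6.07 points on the right, apart from the other DDT libraries, which overlap VEH.

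The fragment with the smallest unadjusted p lay upstream of Cdk5r2, which encodes a neuronal activator of the kinase Cdk5. It has 3 CpGs, is outside genes at 48204 bp from Cdk5r2, and its nearest start is that of Wnt10a, a secreted Wnt ligand, at 13404 bp. VEH levels had a lowest, median and highest library of 3.39, 10 and 20%, and DDT levels of 0, 3.30 and 5.56%. All DDT libraries with a level were below the VEH median, though the lowest VEH library was within the DDT range. The difference was -8.90 points (SE 1.84), with an unadjusted ANOVA p of 0.00052, a permutation p of 0.000132 and an adjusted p of 0.869. Depth was low, at 2 to 138 calls per library, and 8 of 12 DDT libraries had a level. Leaving out VEH replicate 9 gave 0.00109, the largest unadjusted p of those that could be computed without 1 library, and DDT replicate 4 had no level.

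A further 2 fragments of the 9 upstream of Cdk5r2 had an unadjusted p under 0.05, both lower in DDT. At 38086 bp, VEH ran from 8.11 to 36.4% with a median of 20.3% and DDT from 0 to 21.1% with a median of 14.8%, a difference of -7.33 points (SE 3.15, unadjusted p = 0.0298). At 32727 bp, VEH ran from 56.5 to 86.1% with a median of 77.0% and DDT from 35.4 to 87.5% with a median of 67.9%, a difference of -12.5 points (SE 5.70, unadjusted p = 0.0342). Without DDT replicates 4 and 12 these p were 0.0514 and 0.0703. Each holds 1 CpG at a median of 40.5 and 27.5 calls. The deeper fragments among them did not share the difference. The one at 47933 bp, with a median of 504 calls, had a VEH mean of 4.23% ± 1.45 (SD, n = 12) and a DDT mean of 4.62% ± 1.10 (SD, n = 11), and the one at 38017 bp, with 940 calls, 2.71% ± 0.683 and 2.45% ± 1.33 (SD, n = 12 each).

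Of the other 9 fragments with the smallest p, 5 were higher and 4 lower in DDT. The lower ones were upstream of Sec16a, Rab14, Gtsf1l and Zfp345. Upstream of Sec16a, a scaffold of vesicle exit sites on the endoplasmic reticulum, VEH had 5, 15.6 and 25% as lowest, median and highest and DDT 0, 7.14 and 14%. All 11 DDT libraries with a level were below the VEH median, and the difference was -7.94 points (SE 2.27, unadjusted p = 0.00233). The lowest was DDT replicate 4, without which the difference was -7.26 points (unadjusted ANOVA p = 0.00514). Upstream of Rab14, a small GTPase of endosomal traffic, VEH had 82.8, 88.9 and 92.7% and DDT 80.4, 84.7 and 87.6%. All 12 DDT libraries were below the VEH median, for a difference of -3.43 points (SE 1.02, unadjusted p = 0.00275).

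The Zfp345 fragment, with 14 CpGs, was the one with the widest difference among these 10. It lies inside Gm14121, 204 bp from its start. VEH had 54.1, 60.7 and 75% as lowest, median and highest, and DDT 23.5, 52.2 and 65.9%. In DDT, 10 of 11 libraries were below the VEH median, and the difference was -12.5 points (SE 3.91, unadjusted p = 0.0036). The lowest value was that of DDT replicate 12, without which the difference was -9.96 points. The Gtsf1l fragment had 89.1, 90.8 and 94.1% in VEH and 82.5, 88.1 and 91.1% in DDT, for a difference of -3.48 points (SE 1.06, unadjusted p = 0.00277).

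Fragments higher in DDT among these 10 were all highly methylated. Upstream of Sulf2, a sulfatase that trims heparan sulfate outside cells, VEH had 93.9, 98.3 and 100% as lowest, median and highest and DDT 98.9, 99.6 and 100%. All 11 DDT libraries with a level were above the VEH median, for a difference of 1.80 points (SE 0.490, unadjusted p = 0.00196). Upstream of Gm6430, 110 bp from the start of Slco6b1, an organic anion transporter, VEH had 91.2, 93.4 and 97.2% and DDT 92.4, 96.0 and 99.9%, a difference of 2.75 points (SE 0.739, unadjusted p = 0.00117). This fragment was the deepest of the 10 at its shallowest library, with 143 to 925 calls. Its lowest DDT library was replicate 12 and its highest replicate 4. The difference was 2.42 points without DDT replicate 4 and 3.10 points without DDT replicate 12. Upstream of Nbea, the neurobeachin gene of vesicle traffic, the fragment was all repeat, and the VEH mean was 94.9% ± 2.20 (SD, n = 12) and the DDT mean 97.5% ± 1.38 (SD, n = 11). The fragments assigned to Gm10518 and Lcn11 differed by 4.01 and 3.10 points (SE 1.26 and 0.975). The one assigned to Gm10518 lies inside Ahctf1, a nuclear pore gene, and its highest library was DDT replicate 4 at 100%, without which the difference was 2.97 points. In all 10 fragments the ranges of the groups overlapped.

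**Figure D5:**
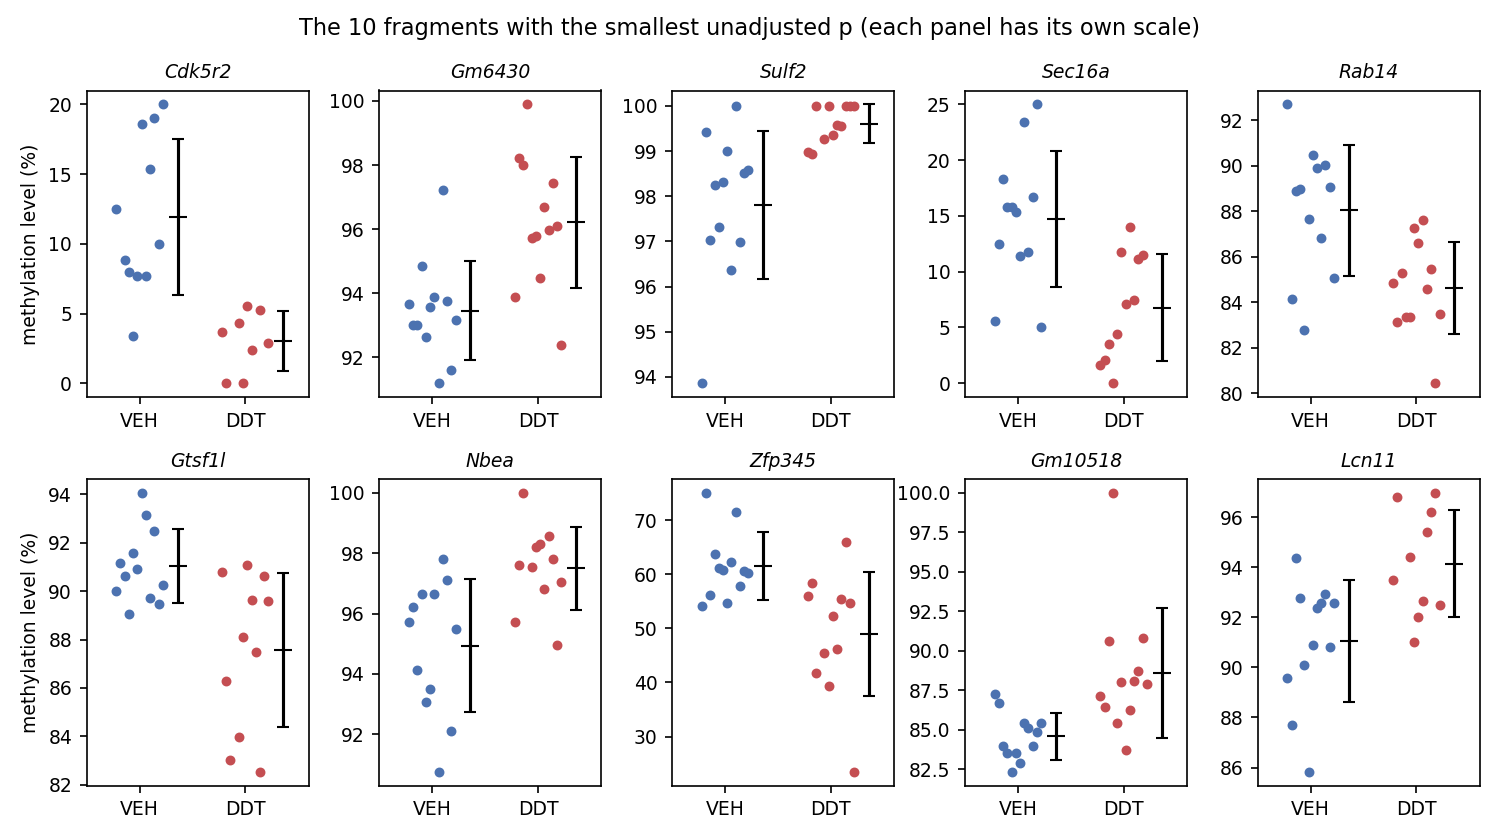
Methylation level (%) of each library at the 10 upstream fragments with the smallest unadjusted p, named by their assigned gene, with VEH in blue, DDT in red and bars for mean and SD. Groups overlap in every panel, and each panel has its own scale, from a difference of 1.80 points at Sulf2 to one of -12.5 points at Zfp345.

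At 11 genes more than 1 tested fragment had an unadjusted p under 0.05, a set chosen by these p and given as a description. At 6 of them all such fragments were lower in DDT. Besides Cdk5r2 these were 4930591A17Rik, Cdc42se1, Mir126, Mir298 and Olfr339. At Gm10518 both were higher, the second with VEH libraries from 75.1 to 83.8% and DDT libraries from 78.2 to 99.4%. At the other 4 the directions were mixed. Upstream of AC160552.1, fragments that touch inside S100a3 differed in opposite directions, by -5.65 points (SE 2.23) from a VEH mean of 22.0% and by 4.11 points (SE 1.79) from one of 70.4%. Upstream of Tanc1, touching fragments differed by -2.65 points (SE 0.963) and 4.09 points (SE 1.96). Mir126, a microRNA of endothelial cells made from Egfl7, had one of its fragments 38 bp from an Egfl7 start. VEH libraries there ran from 10.6 to 32.2% with a median of 24.9% and DDT libraries from 0.231 to 26.8% with a median of 17.9%. The unadjusted p was 0.0157, and 0.0573 without DDT replicates 4 and 12.

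Fragments assigned to Mir298 were the most numerous, with 19 tested, of which 18 lie inside Gnas. Gnas encodes the stimulatory G protein alpha subunit, which couples beta adrenergic receptors to cAMP in BAT, and its locus is imprinted, with stretches methylated on one parental allele. Mean VEH levels ran from 11.1 to 88.6% with a median of 67.3%, and neighbours differed within a short stretch. At 30394 bp the VEH mean was 77.0% ± 1.96, at 30435 bp 43.8% ± 6.42, at 31558 bp 88.6% ± 5.80 and at 32105 bp 29.8% ± 10.2 (SD, n = 12 each). DDT means were lower at 15 of the 19, beside 56.8% of all tested upstream fragments and 56.9% of the table with all libraries. Without DDT replicates 4 and 12 they were lower at 13. The median difference of all tested upstream fragments was then 0.00151 points, in place of -0.178. The 19 lie close together and were read in the same libraries, so that these counts are a description. The widest difference was at 32889 bp, the fragment that was also among the most variable in VEH. VEH libraries there ran from 40.7 to 100% with a median of 76.5%, and DDT libraries from 8.71 to 80.8% with a median of 62.0%. The difference was -21.5 points (SE 9.44, unadjusted p = 0.0285). Its lowest library was DDT replicate 12 at 919 calls, and without it the difference was -16.6 points with p = 0.0628, DDT replicate 4 having no level there. At 31771 bp the difference was -15.5 points (SE 7.15, unadjusted p = 0.0412). DDT libraries there ran from 7.14 to 87.4% and VEH libraries from 68.3 to 87.0%, and without DDT replicates 4 and 12 the difference was -7.17 points and p = 0.115.

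Genes of brown adipocytes and lipid metabolism had 23 tested fragments at 11 genes, and none had an unadjusted p under 0.05, beside 4.18% of the table. Their median VEH level was 62.4%, beside 54.1% for all tested upstream fragments. The 3 fragments assigned to Irs1, the insulin receptor substrate, were at the start of Rhbdd1 and low. The lowest of them, also the lowest of the list with enough calls, ran from 1.66 to 4.55% in VEH with a median of 3.51% and from 0 to 4.27% in DDT with a median of 3.07%. Upstream of Fabp4, which encodes the fatty acid binding protein of adipocytes, 1 fragment had 48.0% ± 6.29 in VEH and 48.1% ± 10.4 in DDT (SD). Upstream of Cebpb, an early adipogenic factor, 1 fragment was methylated in both groups, at 93.4% ± 4.08 and 93.4% ± 3.03. The 6 fragments upstream of Rxrg, partner of PPAR receptors, ran from 13.4 to 87.3% in VEH. The smallest p of the list was at the first of the printed Rxrg fragments, with a difference of 2.93 points (SE 1.75, unadjusted p = 0.104). The single Rxra fragment had 65.0% ± 5.81 in VEH and 54.8% ± 20.4 in DDT, with DDT libraries from 0.261 to 70.9% and a median of 60.6% (unadjusted p = 0.111). Without DDT replicates 4 and 12 the difference was -3.11 points, in place of -10.2 points (unadjusted p = 0.346).

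Counts in the other gene lists are to be read beside the 4.18% of the table with an unadjusted p under 0.05. Developmental transcription factors had 103 tested fragments at 38 genes with a median VEH level of 14.7%, and 58 of them were under 20%. Of them 2 had an unadjusted p under 0.05, both lower in DDT. Skeletal muscle genes had 21 at 5 genes with a median of 9.16% and none with an unadjusted p under 0.05, and 16 of the 21 belong to Pax3. Across the lists, 9 genes stand on more than 1 list, Pax3 among them. Blood and immune genes had 35 at 23 genes with a median of 83.9%. One passed, upstream of Rgs2, a regulator of G protein signalling, with 84.3 to 91.4% in VEH and 86.5 to 100% in DDT, a difference of 3.16 points (SE 1.48, unadjusted p = 0.0439). Without DDT replicate 4 it was 2.43 points with p = 0.0852. The fragment that touches it had 19.2% ± 2.89 in VEH and 18.5% ± 7.41 in DDT (SD, n = 12 each).

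The lowest fragment of the immune list, assigned to B2m, lay at the start of Spg11 and ran from 4.01 to 8.18% in VEH with a median of 5.44% and from 2.15 to 8.70% in DDT with a median of 4.82%. Neuronal genes had 7 at 7 genes with a median of 83.5% and none with an unadjusted p under 0.05. The lowest, and the one with the smallest p, was assigned to Kcnj9, a potassium channel gene, and lay inside the neighbouring channel gene Kcnj10. It ran from 24.6 to 43.4% in VEH and from 13.2 to 40.4% in DDT (difference -4.50 points, SE 3.24, unadjusted p = 0.167). Among the 67 fragments at olfactory receptor genes, 4 (5.97%) had an unadjusted p under 0.05, 2 in each direction, beside 4.18% of the table. Both lower ones were upstream of Olfr339. At 8216 bp VEH ran from 88.9 to 100% with a median of 92.9% and DDT from 77.4 to 95% with a median of 85.6%, a difference of -6.77 points (SE 2.25, unadjusted p = 0.00603). At 13061 bp VEH ran from 74.7 to 84.3% and DDT from 63.9 to 83.1%, a difference of -4.44 points (SE 1.74, unadjusted p = 0.0163). Without DDT replicates 4 and 12 these p were 0.0106 and 0.0196 in that order. The lowest olfactory receptor fragment, upstream of Olfr1225, had 10.9% ± 2.33 (SD, n = 12) in VEH.

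By level, the direction of small p depended on the libraries used below 80%, and over 80% most were higher in DDT in either case. Of the 586 fragments with VEH levels between 20 and 80%, 36 (6.14%) had an unadjusted p under 0.05, beside 4.87% in the whole table at these levels, and 7 of the 36 were higher in DDT. DDT replicates 4 and 12 were at -10.8 and -8.89 points in these fragments. Without them 30 of 575 (5.22%) had such a p, beside 5.02% of the table, and 12 of the 30 were higher. Of the 723 over 80%, 33 (4.56%) did, beside 5.06% of the table, and 21 of them were higher. Without the same libraries there were 36 of 697 (5.16%), beside 5.64% of the table, and 25 of the 36 were higher. Of the 744 under 20%, 30 (4.03%) did, beside 3.67% of the table, and 5 were higher. Without these libraries 37 of 721 (5.13%) did, beside 3.96% of the table, and 18 of the 37 were higher. By kind, 27 of the 573 near starts (4.71%), 5 of the 167 CpG-dense (2.99%) and 67 of the 1313 CpG-poor fragments (5.10%) did. The shares of the whole table for these kinds were 3.69, 3.54 and 5.09%. Without DDT replicates 4 and 12, 32 of 552, 6 of 160 and 65 of 1281 did, beside 4.07, 3.74 and 5.37% of the table. These shares were not tested against each other.

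Short sequence motifs were counted around the tested fragments and around all fragments of the table, which include them, with no test of the difference. In windows of 301 bases, both strands searched, the E-box letters CANNTG were found in 72.5% of tested fragments and 74.2% of all table fragments. CACGTG, which is one form of CANNTG, was found in 4.09 and 4.49%, the AP-1 letters TGANTCA in 6.58 and 4.74%, and the nuclear receptor half-site AGGTCA in 14.4 and 11.7%. Its paired forms, the DR1 element of PPAR and RXR and the palindromic estrogen response element, were found in 0.0487 and 0% of tested fragments. A loose form of the palindromic NFI site, fixing only some letters, was found in 10.5% of tested and 9.11% of all fragments. It was found in 15.1% of the 192 low and 10.9% of the 614 high CpG-poor fragments. The full NFI site was not counted. GCGTG, the core bound by the aryl hydrocarbon receptor, was found in 31.3 and 28.8%, and in 46.6% near starts. CCACNAGG gave 5.16 and 4.97%, the EBF palindrome 1.32 and 1.10%, TGACGTCA 0.244 and 0.415%, and TTGCGCAA 0.0487 and 0.0565%. A match is a run of letters and not a bound site.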

How the data were processed

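RRBS of infant BAT gave 12 DDT and 12 VEH libraries, grouped by their labels. The authors trimmed the reads, aligned them to GRCm38 with Bismark 0.15.0 and Bowtie2 (FastQC is also listed in their processing notes), and deposited whole-number counts of methylated and not methylated CpG calls per MspI fragment, not normalized, with an annotation whose release is not given in the sources used here. Only these counts and annotation columns were used. The table ends at 65536 lines with its header, within chromosome 3. Depth was 8371958 to 14124652 calls per library.

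A level needed 10 calls or more in a library, and a fragment needed 8 or more libraries with a level in either group. The fragments of the whole table were compared by an ANOVA F test, the test given in the study's statistics, with Benjamini-Hochberg adjustment over 20225 fragments and a threshold of 0.05. The source does not give a minimum of calls, and its differential methylation package was not run. Single values had two-sided permutation tests of 100000 resamples. Nothing in the labels says more of how litters were assigned to libraries, so that p-values measure the spread between these pools. Alternatives were minimums of 5 and 20 calls, levels in all 24 libraries, quasi-binomial regression, limma on log2((methylated + 1) / (not methylated + 1)), pooled calls, the replicate number as a block, libraries left out, and members outside genes. All tests across fragments were tested on simulated data. Without a shift, a p under 0.05 came at 4.55% of simulated fragments in the ANOVA and 4.78% in limma. It came at 4.49% with the block and 7.73% in the quasi-binomial regression, which called 22 after adjustment, where the ANOVA called 2. Positions, starts, sequences and repeats (lower case in the reference) came from RefSeq GRCm38 and GENCODE M21, and the fragments all start at an MspI cut. Among the tested upstream fragments, 19 have a sequence that occurs again in the table.

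Named fragments were those with the 10 smallest p, the 6 lowest levels with at least 4 CpGs and a median of 30 calls, the 4 largest VEH SDs with a median of 50 calls, the smallest p and lowest level of each gene list, and the genes, and olfactory receptor genes, with the most fragments (5 each, with ties). Others were chosen after their values were seen, among them the touching pairs, the low CpG-poor fragments and the genes with several small p. The fragments and lists were chosen with earlier results of these data known. Tools were R 4.3.3, limma 3.58.1, SciPy 1.17.1, pandas 2.3.3, matplotlib 3.10.9, NumPy 2.4.6 and Python 3.11.15. One fragment that the naming rule picks is not reported here.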

Additional observations from a re-analysis of the deposited data

How the results depend on the processing

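No alternative called a fragment at an adjusted p under 0.05. A minimum of 5 calls gave 35.1% of fragments under 20% in VEH, and one of 20 calls gave 37.6% with a median of 50.7%. Requiring a level in all 24 libraries left 764 fragments, 47 with an unadjusted p under 0.05, a median of 12.0% and 57.9% under 20%. The quasi-binomial regression gave 161 (7.84%) at an unadjusted p under 0.05, beside 7.72% of the table. On simulated calls without a difference it gave more such p than the ANOVA. Fragments outside genes numbered 1231, with 53 (4.31%) at an unadjusted p under 0.05, beside 4.18% of the table. Their median was 69.2%, and 24.5% of them were under 20%. Leaving out DDT replicates 4 and 12 gave 53.4% higher in DDT among fragments with an unadjusted p under 0.05, in place of 33.3%. In the whole table it gave 49.5% in place of 29.8%. Leaving out single libraries gave 23.3% (without DDT replicate 11) to 43.4% (without DDT replicate 6) for that share, and 81 to 120 such fragments, against 99. The mean difference then lay between -1.04 and -0.460 points, the latter without DDT replicate 4. With the replicate number as a block, 98 had an unadjusted p under 0.05, 39.8% of them higher in DDT. For the block, the levels in all 24 libraries and the single libraries left out, no share of the whole table is given. The counts under these settings therefore do not compare upstream fragments with the table. Under the block the unadjusted p was 0.0459 for the Pax3 fragment at 18926 bp, 0.0231 for the first Rxrg fragment and 0.126 for the Mir298 fragment at 32889 bp. The quasi-binomial p was 0.0967 for the Rgs2 fragment, 0.0487 for Ralb and 0.0264 for the first Cenpf fragment, and the limma p was 0.0442 for the printed Tmco1 fragment. The numbers did not pair the libraries: the correlations of same-numbered libraries ran from -0.180 to 0.199, 3 of 12 above 0.1, and 0 DDT libraries correlated best with their own number. The cause of these shifts was not tested. Among the other results, 474 values of single fragments kept their direction and their side of the adjusted threshold. Levels and mean differences moved by less than the SD between libraries. Counts at an unadjusted p under 0.05 stayed within a set factor of the main count. Shares higher in DDT stayed within the 95% confidence interval of the main share. Depth limits fragments of few calls, such as the first one named, more than deep ones.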
